A study of Rattus norvegicus with 10 samples.

Results

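The splicing regulators described here are 60 genes in 5 families: 16 SR and SR-related proteins, 18 hnRNPs, 8 RBM and LUC7-like factors, 5 splicing kinases and 13 regulators known from neurons. They were chosen by name, with earlier results of these data known. Each gene is represented by the probe set that carries its symbol alone or, where there were several, by the one with the highest mean over the 10 arrays. Of the 60 genes, 57 had such a probe set and were tested, among 16941 genes on 18304 probe sets in all. Srsf1, Hnrnpab and Clk2 are on probe sets that carry another symbol as well and were not analysed here.

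RNA of the prefrontal cortex (PFC) was profiled in 5 rats labelled Stress and 5 labelled Control, with 1 whole-transcript array per rat. All were adult male Sprague–Dawley rats. The Stress rats (FS rats below) received footshock (FS) at 0.8 mA in a session of 40 min, of which shocks filled 20 min, went back to their home cages and were killed 24 h after the session began. The controls received no session and no shock and were not moved from where they were housed. Since the tissue is bulk PFC, fewer cells that express a gene and less RNA per cell cannot be told apart. A level is the deposited log2 value of a probe set, and each log2 fold change is FS minus control. Precision is limited by having 5 arrays a group: the standard error (SE) of a member's log2 fold change lay between 0.030 and 0.071.

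Pre-mRNA splicing removes introns on the spliceosome, and the exons that are kept depend on proteins that bind the transcript nearby. SR proteins usually favour the inclusion of exons through their domains rich in serine and arginine, which CLK and SRPK kinases phosphorylate. Many hnRNPs act against SR proteins and repress exons, and LUC7-like proteins take part in the recognition of 5′ splice sites by the U1 particle. Neurons have their own layer of control, in which RBFOX, NOVA, CELF, MBNL, ELAVL and PTBP2 proteins and SRRM4 shape the isoforms of channels, receptors and synaptic proteins. Many of these regulators control the splicing of their own transcripts, which a single value per gene does not show.

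In the genes of Srsf9 and Hnrnpl, every FS rat lay below every control, so their promoters are shown here as examples of the family. Each is the window from 250 bases before to 50 bases after the start of the gene in RefSeq, build GRCr8, at chr12:46945098-46945397 on the minus strand for Srsf9 and chr1:93228151-93228450 on the plus strand for Hnrnpl. Capitals mark, on either strand, the GC box GGGCGG, the CCAAT box CCAAT, the core TGACG of the cAMP response element, the TATA box TATAAA and the E-box CACGTG, with no overlap between different motifs here.
Srsf9: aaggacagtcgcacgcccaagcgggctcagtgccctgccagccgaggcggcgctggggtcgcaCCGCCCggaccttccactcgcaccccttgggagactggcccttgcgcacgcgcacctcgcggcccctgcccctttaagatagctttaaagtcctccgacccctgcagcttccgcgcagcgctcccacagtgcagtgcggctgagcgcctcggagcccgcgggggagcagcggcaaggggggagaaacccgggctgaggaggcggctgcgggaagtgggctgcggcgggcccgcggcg
Hnrnpl: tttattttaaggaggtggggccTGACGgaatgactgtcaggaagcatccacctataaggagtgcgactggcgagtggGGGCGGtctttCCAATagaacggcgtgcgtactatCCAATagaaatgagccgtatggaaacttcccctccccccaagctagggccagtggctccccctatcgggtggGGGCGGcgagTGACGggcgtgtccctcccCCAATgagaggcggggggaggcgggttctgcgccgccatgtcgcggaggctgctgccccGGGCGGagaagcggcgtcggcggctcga
The window of Srsf9 held 1 GC box and no match to the other motifs, and that of Hnrnpl held 3 GC boxes, 3 CCAAT boxes and 2 TGACG cores. RefSeq windows were found for 53 of the 60 members, 58 windows in all. A GC box was in 63.8% of these windows, against 33.1% of all 33469 windows of the same length, and a CCAAT box in 53.4%, against 37.5%. The TGACG core was in 46.6% of member windows and 21.2% of all windows, the TATA box in 15.5% and 14.2%, and the E-box in 8.62% and 6.42%. Member windows were also richer in G and C, with a median GC content of 61.8% against 51.7% over all windows, and whether the shares differ at equal GC content was not tested. A match is a description of letters and not a binding site.

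Across the 5 families, most members had a slightly lower mean in FS rats, and no single member passed the test. Of the 57 members, 48 had a negative log2 fold change and 9 a positive one, that is 84.2% negative, against 49.7% of all probe sets tested. The median log2 fold change was -0.035 over members and 0.00044 over all probe sets. In limma, with p-values adjusted over all 18304 probe sets, 0 members passed 0.05, as did 0% of all probe sets, and the smallest adjusted p of a member was 0.388, that of Srsf9. At an unadjusted p under 0.05 in limma, 5 members were lower in FS rats, or 8.77% of them, against 4.09% of all probe sets. These were Srsf9, Tra2b, Srrm4, Hnrnph3 and Luc7l3. No member was higher at that p, a direction that held 5.75% of all probe sets but, in the bands of level between 8 and 12 that hold 56 of the 57 members, only 0.970% to 2.06% of them. All 5 FS rats lay below all 5 controls for 2 members, Srsf9 and Hnrnpl, or 3.51%, against 0.972% of all probe sets. The opposite arrangement was seen for 0 members, against 0.972% of all probe sets. The plot of log2 fold changes by family shows how small the differences were.

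**Figure D1:**
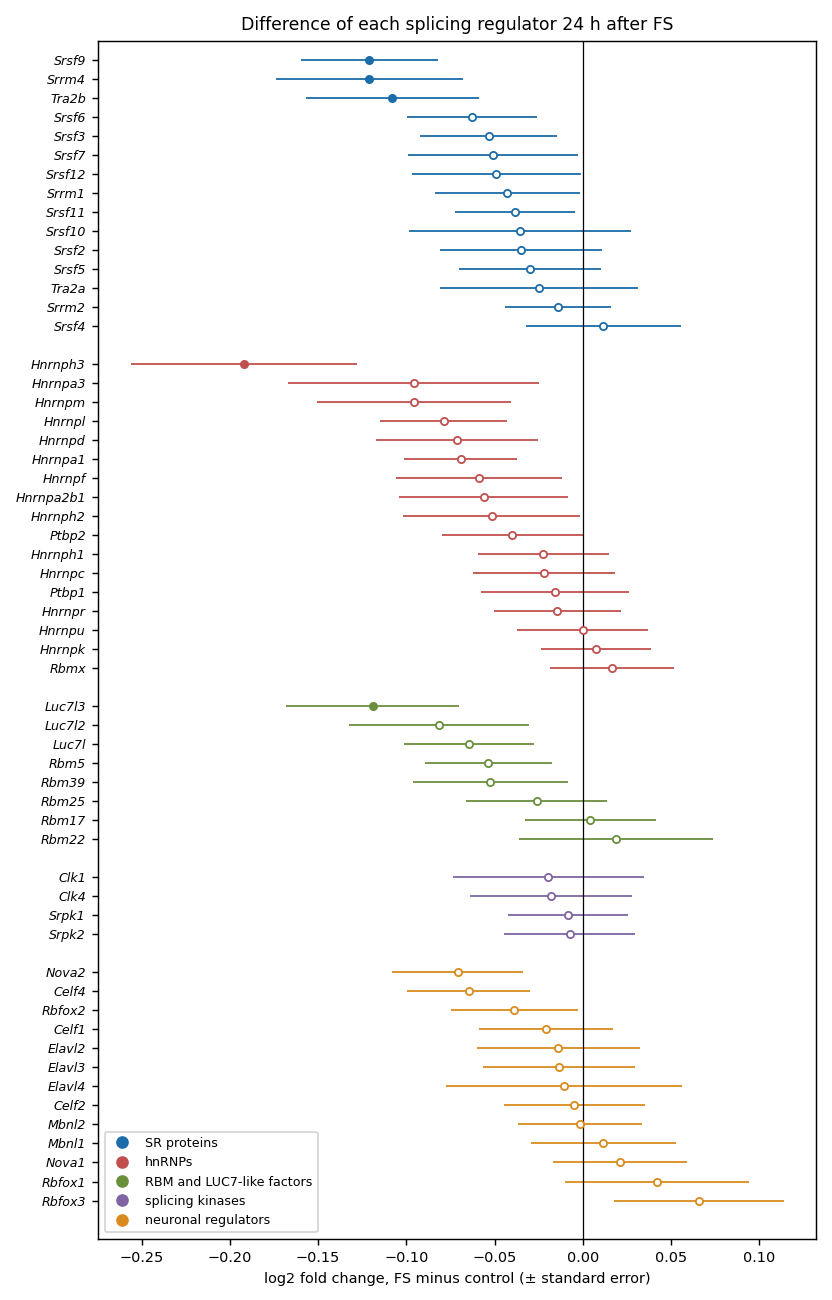
Log2 fold change (FS minus control, x axis) with its standard error for each of the 57 members, grouped by family and ordered within it. Filled points have an unadjusted p under 0.05 in limma, and 48 of the 57 points lie left of 0, from -0.19 for Hnrnph3 to 0.066 for Rbfox3 on the right.

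These differences have to be read beside the levels of the arrays. The members are well expressed, with mean log2 levels between 7.45 and 11.93, and over all probe sets the log2 fold change itself varied with the level. Its median was 0.044 for the 3191 probe sets with a mean level between 6 and 7, and -0.023 for the 2680 between 9 and 10. In the band from 9 to 11, which holds 40 of the 57 members, 64.3% of all 4135 probe sets were on the negative side, around a median of -0.018, and 4.86% were lower at an unadjusted p under 0.05. Of the 40 members in that band, 35 were on the negative side, around a median of -0.039, and 4 were lower at that p. At levels of 8 or more, 63.8% of all 8572 probe sets were negative, around a median of -0.0185, and 5.34% were lower at that p. Of the 56 members at those levels, 47 were negative, around a median of -0.0326, and 4 were lower at that p. The interquartile range of an array over the probe sets tested lay between 2.45 and 2.54 in FS rats, against 2.46 and 2.64 in controls. With the arrays given equal distributions by quantile normalization, 42 of 57 members had a negative log2 fold change, their median was -0.016, and 2 members, Srsf9 and Hnrnph3, were lower at an unadjusted p under 0.05. These are 3.51% of the members, against 4.19% of all probe sets under that normalization, so the higher share among members was not seen there. The plot of log2 fold change against level shows members and all probe sets together.

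**Figure D2:**
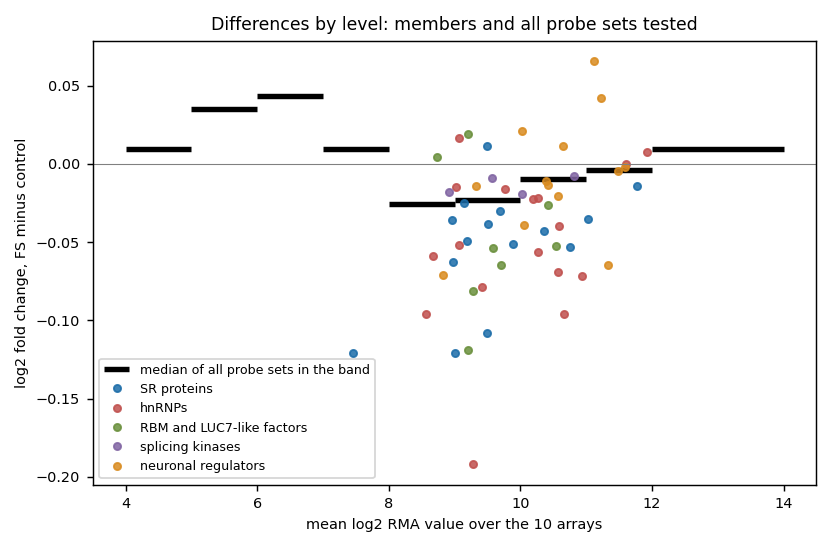
Log2 fold change (FS minus control, y axis) against the mean log2 level over the 10 arrays (x axis) for the members, coloured by family, with black bars for the median of all probe sets in each band of level. The bars lie above 0 between levels of 4 and 8 and below 0 between 8 and 12, and most members lie in the second range and below their bar.

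In the SR family, nearly all members had a lower mean in FS rats. Of its 15 measured members, 14 log2 fold changes were negative and 1, that of Srsf4, positive, around a median of -0.043. At an unadjusted p under 0.05 in limma, 3 were lower, and 0 passed after adjustment. These 3 are 20% of only 15 genes, against 4.09% of all probe sets and 5.34% of those with a mean level of 8 or more. Averaged over the family after each gene was centred on its mean, FS replicates 1 to 5 were at -0.010, -0.0061, -0.028, -0.059 and -0.026, and control replicates 1 to 5 at 0.028, 0.072, -0.0073, 0.036 and 0.00033. All FS rats were below 0, and the groups overlapped by a single pair of rats, since control replicate 3 lay just under FS replicate 2.

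Srsf9, also known as SRp30c, is a small SR protein with a pair of RNA recognition motifs. Srsf9 had log2 levels of 7.359, 7.427, 7.368, 7.379 and 7.407 in FS replicates 1 to 5, against 7.463, 7.589, 7.428, 7.552 and 7.514 in control replicates 1 to 5. All FS rats were below all controls, but FS replicate 2 and control replicate 3 were nearly level. The means were 7.39 ± 0.028 in FS rats and 7.51 ± 0.065 in controls (SD, n = 5 each). For Srsf9 the difference was -0.12 on the log2 scale (SE 0.039, limma adjusted p = 0.388), and the exact permutation test, two-sided, gave p = 0.00794, the smallest it can give. Any gene whose groups lie apart receives this p, so it restates that arrangement and adds no support.

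Tra2b encodes transformer-2 beta, an SR-like protein that promotes the inclusion of exons rich in purines. Tra2b had log2 levels of 9.46, 9.53, 9.42, 9.35 and 9.45 in FS replicates 1 to 5, against 9.56, 9.51, 9.42, 9.61 and 9.65 in control replicates 1 to 5. The groups overlapped, since control replicate 3 was below 4 of the 5 FS rats. For Tra2b the difference was -0.11 on the log2 scale (SE 0.049, limma adjusted p = 0.505). Tra2b was the member just inside 0.05 before adjustment, with a limma p = 0.0481, and the exact permutation test, two-sided, gave p = 0.0794. The second probe set of Tra2b had a log2 fold change of -0.023, and the correlation between both probe sets over the 10 rats, after removal of the group means, was 0.0496, so they did not vary together.

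Srrm4, the SR-related protein nSR100, promotes the inclusion of microexons in neurons. Srrm4 had log2 levels of 8.99, 8.88, 9.05, 8.88 and 8.91 in FS replicates 1 to 5, against 9.10, 9.12, 9.16, 9.01 and 8.92 in control replicates 1 to 5. Controls 1 to 3 were above all FS rats, while controls 4 and 5 lay within the FS range. For Srrm4 the difference was -0.12 on the log2 scale (SE 0.053, limma adjusted p = 0.499; exact permutation test, two-sided, p = 0.0635).

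At the other end of the family stood Srsf4, an SR protein with a long domain of serine and arginine. Srsf4 had log2 levels of 9.49, 9.51, 9.39, 9.52 and 9.55 in FS replicates 1 to 5, against 9.45, 9.59, 9.42, 9.50 and 9.43 in control replicates 1 to 5. The groups were interleaved, and the difference was 0.012 on the log2 scale (SE 0.044, limma adjusted p = 0.951; exact permutation test, two-sided, p = 0.778). The remaining 11 members had log2 fold changes between -0.063, for Srsf6 (exact permutation test, two-sided, p = 0.0476, limma p = 0.117), and -0.014, for Srrm2, which encodes a scaffold protein of the spliceosome. Srsf3, which shuttles between nucleus and cytoplasm and also acts in mRNA export, was at -0.053, and Srsf2, which stays in the nucleus, at -0.035. The log2 fold change of Tra2a, the paralogue of Tra2b, was -0.025. Srsf10 varied most within groups, with an SD of 0.11. The log2 levels of 6 members of all families are plotted by rat.

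**Figure D3:**
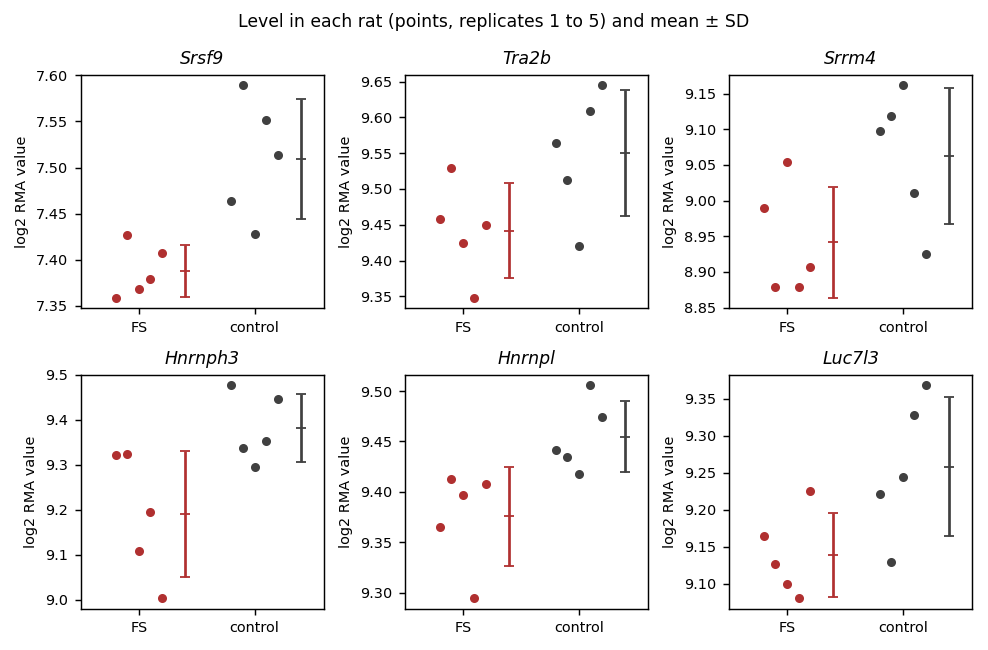
Log2 level of Srsf9, Tra2b, Srrm4, Hnrnph3, Hnrnpl and Luc7l3 in each rat (y axis, own scale in each panel), FS rats in red and controls in grey, with the mean and SD of each group beside the points. The groups lie apart for Srsf9 and Hnrnpl and overlap for the other 4 genes.

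Among the 17 measured hnRNPs, 15 log2 fold changes were negative and 2 positive, around a median of -0.052. At an unadjusted p under 0.05 in limma 1 was lower, Hnrnph3, and 0 passed after adjustment. This 1 gene is 5.88%, against 4.09% of all probe sets and 5.34% of those with a mean level of 8 or more. The median was -0.028 without FS replicate 3 and -0.029 after quantile normalization. The family mean, centred per gene, was 0.010, 0.010, -0.082, -0.032 and -0.033 in FS replicates 1 to 5 and 0.040, 0.017, -0.014, 0.048 and 0.035 in control replicates 1 to 5. FS replicate 3 was the lowest of the 10 rats, and control replicate 3 lay within the FS range.

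Hnrnph3 belongs to the hnRNP H/F group, whose members bind runs of guanines, and it had the lowest log2 fold change of all members. Hnrnph3 had log2 levels of 9.323, 9.324, 9.108, 9.195 and 9.003 in FS replicates 1 to 5, against 9.477, 9.338, 9.296, 9.354 and 9.446 in control replicates 1 to 5. FS replicates 3 to 5 were below all controls, while FS replicates 1 and 2 were just above control replicate 3. For Hnrnph3 the difference was -0.19 on the log2 scale (SE 0.064, limma adjusted p = 0.401; exact permutation test, two-sided, p = 0.0317). The other members of the group had smaller differences, with log2 fold changes of -0.059 for Hnrnpf, -0.052 for Hnrnph2 and -0.023 for Hnrnph1.

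Hnrnpl binds CA-rich elements and can repress or activate exons. Hnrnpl had log2 levels of 9.37, 9.41, 9.40, 9.29 and 9.41 in FS replicates 1 to 5, against 9.44, 9.43, 9.42, 9.51 and 9.47 in control replicates 1 to 5. All FS rats were below all controls, with a gap smaller than the spread within either group. For Hnrnpl the difference was -0.079 on the log2 scale (SE 0.036, limma adjusted p = 0.505). Hnrnpl was the member just outside 0.05 before adjustment, with a limma p = 0.0507, and the exact permutation test, two-sided, gave p = 0.00794, the smallest it can give. As for Srsf9, that p follows from the groups lying apart and adds no support.

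Hnrnpa1, a classic antagonist of SR proteins at splice sites, came next. Hnrnpa1 had log2 levels of 10.56, 10.54, 10.55, 10.52 and 10.51 in FS replicates 1 to 5, against 10.61, 10.63, 10.55, 10.63 and 10.62 in control replicates 1 to 5. Control replicate 3 was within the FS range and the other 4 controls were above all FS rats. For Hnrnpa1 the difference was -0.069 on the log2 scale (SE 0.032, limma adjusted p = 0.507), with p = 0.0526 in limma before adjustment and p = 0.0238 in the exact permutation test, two-sided. The array holds 3 probe sets for Hnrnpa1, with log2 fold changes between -0.082 and -0.069, of which 2 had an unadjusted p under 0.05. For 1 of these, all FS rats lay below all controls. Their correlations with each other over the rats, after removal of the group means, lay between 0.382 and 0.821.

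Hnrnpa3 has 9 probe sets, all with a negative log2 fold change, between -0.13 and -0.078, and none at an unadjusted p under 0.05. They followed each other closely over the rats, with correlations between 0.878 and 0.991, so they are not 9 separate observations. On the probe set used, FS replicate 3 was at a log2 level of 10.32, while the other FS rats were between 10.61 and 10.75 and the controls between 10.63 and 10.77. Hnrnpa3 had the widest spread within groups of the family, an SD of 0.13. The closely related Hnrnpa2b1 had a log2 fold change of -0.056 on the probe set used and -0.15 on the other.

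Rbmx, which encodes hnRNP G, had the highest moderated statistic of the family. Rbmx had log2 levels of 9.08, 9.10, 9.05, 9.06 and 9.10 in FS replicates 1 to 5, against 8.98, 9.07, 9.10, 9.10 and 9.05 in control replicates 1 to 5. The groups overlapped throughout apart from the low control replicate 1, and the difference was 0.017 on the log2 scale (SE 0.035, limma adjusted p = 0.897; exact permutation test, two-sided, p = 0.579). Hnrnpk, which binds stretches of cytosine, had 3 probe sets of mixed sign, with log2 fold changes between -0.0079 and 0.0073. Hnrnpu, a nuclear scaffold protein, differed by -0.00015 on the log2 scale (SE 0.037). Ptbp1, the polypyrimidine tract protein of progenitors and glia, was at -0.016, and Ptbp2, its counterpart in neurons, at -0.040. The other hnRNPs had log2 fold changes between -0.096, for Hnrnpm, and -0.015, for Hnrnpr.

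Of the 8 RBM and LUC7-like factors, 6 had a log2 fold change under 0 and 2 had one above it, around a median of -0.053. At an unadjusted p under 0.05, 1 was lower. This 1 gene is 12.5% of only 8, against 4.09% of all probe sets and 5.34% of those with a mean level of 8 or more. Without control replicate 2 the median was -0.0345. The centred family mean was 0.0072, -0.027, -0.059, -0.059 and 0.020 in FS replicates 1 to 5 and 0.031, 0.043, 0.0031, 0.050 and -0.0099 in control replicates 1 to 5. FS replicates 3 and 4 were the lowest, and the groups overlapped.

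All 3 homologues of the yeast U1 protein Luc7 had negative log2 fold changes, at -0.12 for Luc7l3, -0.082 for Luc7l2 and -0.065 for Luc7l. The log2 level of Luc7l3 was 9.16, 9.13, 9.10, 9.08 and 9.23 in FS replicates 1 to 5 and 9.22, 9.13, 9.24, 9.33 and 9.37 in control replicates 1 to 5. Controls 3 to 5 were above all FS rats, and controls 1 and 2 were within the FS range. For Luc7l3 the SE of the difference was 0.049 and the limma adjusted p = 0.471, and the exact permutation test, two-sided, gave p = 0.0556. For Luc7l the same exact permutation test gave p = 0.0238, against p = 0.104 in limma before and 0.578 after adjustment.

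Rbm22, a protein of the catalytic core of the spliceosome, was the member at the upper end of this family. Rbm22 had log2 levels of 9.21, 9.22, 9.20, 9.10 and 9.33 in FS replicates 1 to 5, against 9.09, 9.25, 9.25, 9.30 and 9.09 in control replicates 1 to 5. The controls fell on both sides of most FS rats. For Rbm22 the difference was 0.019 on the log2 scale (SE 0.055, limma adjusted p = 0.929; exact permutation test, two-sided, p = 0.754), and its SD within groups, 0.091, was the widest of the family. Rbm5, known for the splicing of apoptosis genes, had a log2 fold change of -0.054, Rbm39, a coactivator related to the splicing factor U2AF, -0.052, Rbm25 -0.026 and Rbm17 0.0043.

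The 4 measured kinases had small negative log2 fold changes, between -0.020 for Clk1 and -0.0075 for Srpk2, with a median of -0.013 that turned to 0.0035 after quantile normalization. None had an unadjusted p under 0.05. Clk4, which like Clk1 phosphorylates SR proteins in the nucleus, had a log2 level of 9.02, 8.87, 8.96, 8.81 and 8.85 in FS replicates 1 to 5 and 8.88, 8.98, 8.85, 8.95 and 8.94 in control replicates 1 to 5. The highest and the lowest rat were both FS rats. The difference for Clk4, -0.018 on the log2 scale (SE 0.046, limma adjusted p = 0.917; exact permutation test, two-sided, p = 0.706), turned to 0.0098 after quantile normalization. Srpk2, which phosphorylates SR proteins in the cytoplasm and is abundant in brain, had a log2 level of 10.843, 10.766, 10.809, 10.834 and 10.818 in FS replicates 1 to 5 and 10.835, 10.783, 10.824, 10.902 and 10.765 in control replicates 1 to 5. These groups were interleaved, and the log2 fold change of -0.0075 (SE 0.037, limma adjusted p = 0.964; exact permutation test, two-sided, p = 0.778) turned to 0.0027 with each array centred on its median. Clk1 varied most within groups, with an SD of 0.089.

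The regulators known from neurons were of mixed sign. Of 13 members, 9 log2 fold changes were negative and 4 positive, around a median of -0.011, and 0 had an unadjusted p under 0.05. Without FS replicate 2 the median was 0.012, and without control replicate 4 it was 0.010. The centred family mean was 0.025, -0.049, 0.023, -0.0035 and -0.015 in FS replicates 1 to 5 and -0.011, 0.011, 0.0080, 0.054 and -0.043 in control replicates 1 to 5, with the lowest and the highest rat in different groups and wide overlap.

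**Figure D4:**
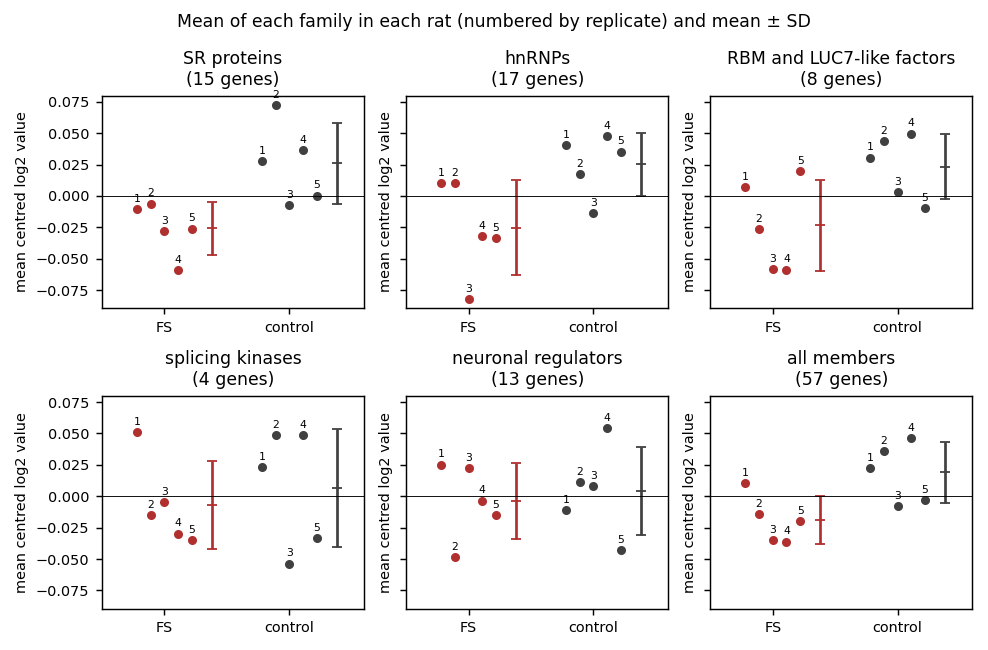
Mean of each family in each rat after each gene was centred on its mean over the 10 arrays (y axis, log2 scale), FS rats left in red and controls right in grey, numbered by replicate, with mean and SD of each group. The groups overlap by a single pair of rats in the SR family and more widely in the other families, and over all 57 members the FS rats lie between -0.036 and 0.011 and the controls between -0.0076 and 0.047.

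Rbfox3, the antigen NeuN of mature neurons, had the highest log2 fold change of all members. Rbfox3 had log2 levels of 11.165, 11.048, 11.206, 11.178 and 11.131 in FS replicates 1 to 5, against 11.063, 10.964, 11.162, 11.166 and 11.045 in control replicates 1 to 5. FS replicates 3 and 4 were the highest and control replicate 2 the lowest, with the others interleaved. For Rbfox3 the difference was 0.066 on the log2 scale (SE 0.048, limma adjusted p = 0.661; exact permutation test, two-sided, p = 0.198). The log2 fold changes of its relatives were 0.042 for Rbfox1 and -0.039 for Rbfox2.

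Nova2, the NOVA protein of the neocortex, had the lowest moderated statistic of the family. Nova2 had log2 levels of 8.77, 8.81, 8.80, 8.75 and 8.82 in FS replicates 1 to 5, against 8.82, 8.93, 8.85, 8.81 and 8.89 in control replicates 1 to 5. Controls 2, 3 and 5 were above all FS rats and controls 1 and 4 were level with the highest FS rats. For Nova2 the difference was -0.071 on the log2 scale (SE 0.037, limma adjusted p = 0.537; exact permutation test, two-sided, p = 0.0476). Its paralogue Nova1 was at 0.021. Celf4, which binds the mRNAs of many synaptic proteins, differed by -0.065 on the log2 scale (limma adjusted p = 0.552), against -0.021 for Celf1 and -0.0048 for Celf2. The MBNL proteins were near 0, at 0.012 for Mbnl1 and -0.0018 for Mbnl2, and the neuronal ELAVL proteins, which bind AU-rich RNA, were at -0.014 for Elavl2, -0.014 for Elavl3 and -0.011 for Elavl4. Elavl4 varied most within groups, with an SD of 0.12.

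Over all 57 members, the rats of both groups overlapped. The mean of the members, centred per gene, was 0.011, -0.014, -0.035, -0.036 and -0.020 in FS replicates 1 to 5 and 0.023, 0.036, -0.0076, 0.047 and -0.0029 in control replicates 1 to 5. FS replicate 1 lay above control replicates 3 and 5. FS replicates 3 and 4 held the lowest value of 14 and 13 members, and control replicates 2 and 4 the highest value of 15 and 14. Above their own mean were 16 members in FS replicate 4 and 44 in control replicate 4.

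Lists of cell type markers were set beside the members. Of 11 neuron markers, all were measured, at mean log2 levels between 8.87 and 13.61, and their centred mean lay between -0.013 and 0.035 in FS rats, against -0.075 and 0.10 in controls, where control replicate 4 was highest. Rbfox3 is in this list and is also a member. The 9 measured markers of excitatory cortical neurons, of 10 listed, ran from -0.048 to 0.025 in FS rats and from -0.10 to 0.050 in controls. For the 10 interneuron markers the range was -0.075 to 0.086 in FS rats, against -0.12 to 0.046 in controls. Control replicate 5 was the lowest rat for both lists. The 10 microglia markers ran from -0.037 to 0.024 in FS rats and from -0.16 to 0.090 in controls. Of 10 astrocyte markers 9 were measured, with centred means between -0.053 and 0.031 in FS rats, against 0.00067 and 0.028 in controls. At an unadjusted p under 0.05, 2 of these 9 were lower in FS rats, or 22.2%. The share was 4.09% of all probe sets and 5.34% of those with a mean level of 8 or more. The 9 oligodendrocyte markers measured of 10 ran from -0.16 to 0.10 in FS rats and from -0.37 to 0.19 in controls. For oligodendrocyte precursors, 5 of 6 markers were measured, from -0.022 to 0.033 in FS rats and from -0.14 to 0.052 in controls. At an unadjusted p under 0.05, 1 of these 5 was higher in FS rats, against 5.75% of all probe sets. Of 10 endothelial markers 7 were measured, of which 6 had a negative log2 fold change, or 85.7%, around a median of -0.069. The negative share was 49.7% over all probe sets, and 44.8% to 67.6% in the bands of level that hold these 7. At an unadjusted p under 0.05, 1 of the 7 was lower, or 14.3%, and 1 was higher. Those directions held 4.09% and 5.75% of all probe sets. Their centred means lay between -0.091 and 0.052 in FS rats, against -0.017 and 0.076 in controls. The 9 choroid plexus markers were at 1.85 in FS replicate 2 and at most 0.13 in the other rats. The 3 measured red blood cell markers, of 6 listed, were at 0.71 in FS replicate 2 and at most 0.14 in the other rats. The 9 measured markers of striatal neurons, of 10 listed, were all lower in the mean of FS rats (median log2 fold change -0.15), with 0 at an unadjusted p under 0.05. Their centred mean was 0.25, 0.19, -0.63, -0.14 and -0.080 in FS replicates 1 to 5, against 0.45, 0.57, -0.43, 0.39 and -0.57 in control replicates 1 to 5. Control replicates 1, 2 and 4 were the 3 highest rats both for these markers and for the members. FS replicate 3 was the lowest for these markers and among the lowest for the members. Control replicate 5 was among the lowest for these markers, but its mean of the members, -0.0029, was above those of FS replicates 2 to 5. FS replicate 4 was the lowest for the members, at -0.036, but not for these markers. No correlation between these markers and the members was computed. Without FS replicate 2, 43 of 57 members had a negative log2 fold change. At an unadjusted p under 0.05, 4 were lower, or 7.02%, against 3.93% of all probe sets. Without control replicate 4 these numbers were 42 and 4, or 7.02%, against 3.15% of all probe sets. The part of the tissue's makeup in the members' differences was not tested beyond this.

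From rat to rat, the members varied together only weakly. After removal of the group means, the median Pearson correlation over the 10 rats was 0.118 for the 1596 pairs of members, of which 61.3% were positive, against 0.0060 and 50.6% for all pairs of genes tested. Within families the median was 0.0703 for SR proteins, 0.197 for hnRNPs, 0.218 for RBM and LUC7-like factors, 0.422 for the 6 pairs of kinases and 0.269 for regulators known from neurons. Between hnRNPs and the regulators known from neurons it was -0.0493. All pairs share the arrays, the dissection and the normalization, and with each array centred on its median, the median over member pairs was 0.019.

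The 3 closest pairs joined members of different or the same family. Srsf2 and Nova1 had a correlation of 0.937 over the 10 rats (Spearman 0.830, and 0.793 by Pearson without the 2 rats farthest from the median of Srsf2). For Srsf5 and Luc7l2 it was 0.924 (Spearman 0.867, and 0.912 without 2 rats), and for Celf4 and Mbnl2 0.903 (Spearman 0.855, and 0.908 without 2 rats). The most opposed pairs were Ptbp2 and Clk1 at -0.862, Srrm2 and Rbfox2 at -0.829, and Srrm2 and Hnrnph1 at -0.820. With 1596 pairs and 10 rats, such extremes are the ends of a wide distribution, and they are given as a description. The correlation with the other members was highest in the median for Rbm39, at 0.328, and lowest for Ptbp2, at -0.248.

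**Figure D5:**
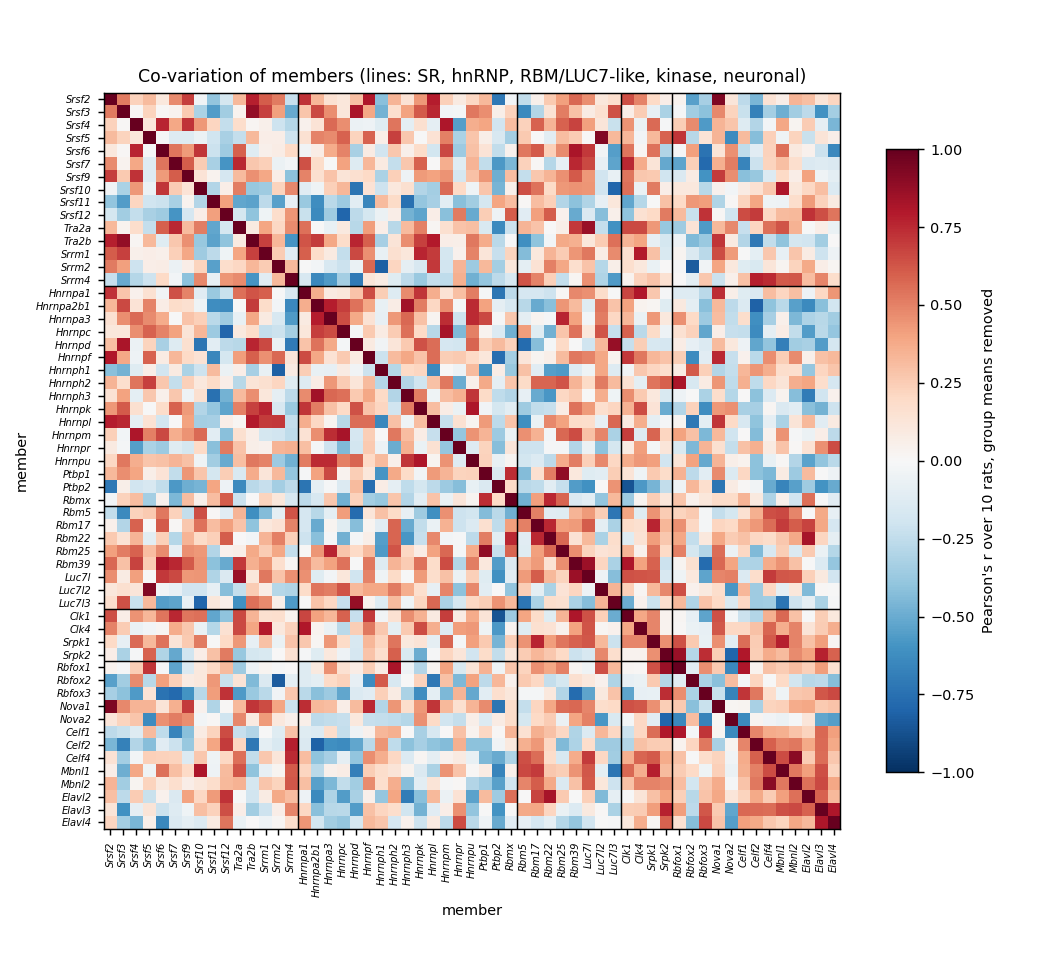
Pearson's r between all pairs of the 57 members over the 10 rats after removal of the group means (colour, red positive and blue negative), with black lines between the families. Red and blue are mixed in every block except that of the 4 kinases, in which all 6 pairs are positive, and the median over all 1596 pairs is 0.118.

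A list of 60 other genes of splicing regulation was set beside the members, most of them RNA-binding proteins and some of them kinases (such as Clk3 and Srpk3) or import receptors (Tnpo1 and Tnpo3). Of these, 54 were tested and 42 had a negative log2 fold change, or 77.8%, against 49.7% of all probe sets and 63.8% of those with a mean level of 8 or more. Their median was -0.040. In limma, none passed after adjustment (smallest value 0.350). Before adjustment, 9 of the 54 were lower in FS rats with a limma p below 0.05, or 16.7%, and 1 was higher. The share lower was 4.09% over all probe sets and 5.34% over those with a mean level of 8 or more, which not all 54 reach. This list was not compared again after quantile normalization, under which the higher share among members was not seen. The lower ones were Srek1 (log2 fold change -0.15), Ybx1 (-0.15), Khdrbs2 (-0.14), Pnn (-0.13), Safb (-0.12), Clk3 (-0.11), Syncrip (-0.11), Tia1 (-0.10) and Safb2 (-0.084). Khdrbs2 is a regulator of neurexin splicing in neurons, and Clk3 is a relative of the kinases above. The higher one was Rbm47, a cofactor of RNA editing, at 0.32 on the log2 scale (SE 0.081), and at a mean log2 level of 5.76, below that of every member.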

How the data were processed

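RNA of the PFC of 10 rats, 5 FS and 5 control, was hybridised to Affymetrix Rat Gene 1.0 ST arrays. For normalization the authors used RMA in oligo 1.58.0, which corrects background, equalises the probe distributions and summarises the probes of a transcript, so each deposited value is a log2 expression level. The probes' genome build: not given in the sources used here. Groups and replicate numbers come from the labels, and correlations between arrays lay between 0.994 and 0.998. Rats were housed in pairs, and which of them shared a cage is not given. The tests treated the rats as independent, and p-values may be too small if cage mates were not. They measure only the spread between these rats.

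Symbols come from the platform annotation (1 symbol for 18644 probe sets, several for 962, none for 9608). All 57 measured members were found by gene identifier in RefSeq. In R 4.3.3, limma 3.58.1 compared FS rats with controls on 18304 probe sets, those whose mean exceeded 4 and whose symbol was single, with Benjamini–Hochberg adjustment over all of them. Members given in full were also compared by an exact permutation test, two-sided, of all 252 assignments of the rats, whose smallest p is 0.00794. The functions were tested on simulated data. The members, the lists and the tests were chosen with earlier results of these data known.

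Given in full are members at an unadjusted p under 0.05, members whose groups lie apart, and the highest and lowest moderated statistic of each family; Hnrnpa1, just outside 0.05, was added in full after its values were seen. Families, correlated pairs and other lists are described without a test. Alternatives changed the filter, the normalization, the variance prior, the array weights, the probe sets of a gene, the replicate block and the rats included. Rats with the same number correlated over 0.1 in 2 of 5 pairs, after removal of the group means. Rats with different numbers were not compared in this way, so these values cannot decide whether rats were paired. The labels name no pairs, and rats were not treated as pairs.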

Additional observations from a re-analysis of the deposited data

Results flagged for a closer look

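Of 124 sets of 5 values looked at, those of the 57 members and of the 5 families in each group, 3 held a rat set apart from the other 4 by a gap beyond Dixon's critical value, where chance flags about 1 in 20 groups. Srsf11, an SR-related protein, was at a log2 level of 9.48 in control replicate 1, below the other controls at 9.52 to 9.54. Hnrnpa1 was at 10.55 in control replicate 3, below the other controls at 10.61 to 10.63. Elavl4 was at 10.58 in control replicate 4, above the other controls at 10.31 to 10.36, and that rat was also the highest for neuron markers.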

How the results depend on the processing

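In the 20 alternatives, 0 members passed an adjusted p of 0.05 (smallest 0.211) and 0 were higher at an unadjusted p under 0.05. The median over members was negative in all, from -0.040 to -0.016. The number lower at that p, 5 as reported, was 8 with an intensity trend, 7 with a mean above 6, 3 with array weights or centred arrays, 2 with quantile normalization or cyclic loess (chosen after seeing the data), 4 with the replicate block, and 2 to 6 without 1 rat (2 without FS replicate 4, 3 without FS replicates 3 or 5 or control replicates 1, 2 or 5). As shares of members and of all probe sets, these were 14% and 4.37% with the trend, 12.3% and 4.63% with a mean above 6. They were 5.26% and 4.96% with array weights, 5.26% and 3.14% with centred arrays, and 7.02% and 4.22% with the replicate block. With quantile normalization and cyclic loess, members held 3.51%, against 4.19% and 4.35% of all probe sets. Without 1 rat, members ran from 3.51% to 10.5% and all probe sets from 3% to 5.18%. Srsf9 and Hnrnph3 were among the lower members in all 20. Over all probe sets, 749 were lower and 1053 higher, 575 and 1287 with centred arrays, 767 and 807 after quantile normalization. Of 260 values of single members, those given in full without Hnrnpa1, 248 kept their direction. Many of these could not change. The intensity trend, the robust prior, the replicate block and both changes of the filter left the log2 fold changes of members, and their median, as they were. The mean of all probe sets could change only members with several. Clk4 turned to 0.0071 with cyclic loess and 0.0098 after quantile normalization, and ran from -0.048 to 0.0049 without 1 rat. Srpk2 turned to 0.0027 with centred arrays, and ran from -0.022 to 0.013 without 1 rat. Without 1 rat, Rbm22 ran from -0.011 to 0.048, Rbmx from -0.0028 to 0.027 and Srsf4 from -0.0030 to 0.039. The kinase median was 0.0033 with cyclic loess and 0.0035 after quantile normalization, and that of the regulators known from neurons ran from -0.021 to 0.012 without 1 rat. The median correlation of member pairs was 0.019 with centred arrays, 0.0524 after quantile normalization and 0.0949 to 0.140 without 1 rat. The cause of these shifts was not tested.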
